A study of Mus musculus with 8 samples.

Results

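The sphingosine kinases and the enzymes around them were followed on the arrays of sorted colonic epithelial cells as 10 genes, Sphk1, Sphk2, Sgpl1, Sgpp1, Sgpp2, Asah1, Asah2, Smpd1, Sptlc1, and Sptlc2. Every probe set that the array annotation pairs with exactly 1 gene symbol was taken when that symbol was one of the 10, which gave 23 probe sets of the 45037 measured (34945 of them with 1 gene). The genes were chosen by a measured value, the large difference of 1 Sphk2 probe set between the groups of mice, so the differences of the members between those groups are given as a description and not as a test. The study asked how Mucus-Associated Functional Factor (MAFF), a set of genes among the polysaccharide utilization loci of the gut symbiont Bacteroides thetaiotaomicron (B. theta), acts in the colon. Specific pathogen free C57BL/6 male mice received metronidazole and ciprofloxacin, were inoculated at 8 wk of age with wild-type B. theta (BTWT) or with the mutant lacking MAFF (BTΔMAFF), and were sampled 4 wk later, at 12 wk of age. Living CD45-negative, EpCAM-positive cells were sorted, their cDNA was amplified, and 1 Affymetrix whole-genome mouse array was hybridized per mouse, with 4 mice in each group. Both groups therefore shared the antibiotic treatment, and no antibiotic-treated mice without B. theta were analysed here.

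Sphingolipids are built from serine and a fatty acyl chain. Serine palmitoyltransferase, of which Sptlc1 and Sptlc2 encode subunits, starts the pathway that leads to ceramide, ceramide is stored in membranes as sphingomyelin or as glycosphingolipids, and the acid sphingomyelinase Smpd1 releases it again in lysosomes. Ceramidases, the acid Asah1 and the neutral Asah2, cut ceramide to sphingosine. Sphk1 and Sphk2 phosphorylate sphingosine to sphingosine-1-phosphate (S1P), a signal read by a family of G protein-coupled receptors, and S1P is removed by the phosphatases Sgpp1 and Sgpp2 or irreversibly by the lyase Sgpl1. In the gut, neutral ceramidase sits in the brush border and takes part in the digestion of dietary sphingolipids.

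Among the members, the large difference between the groups lay on 1 probe set of Sphk2. Sphk2 lies on the minus strand of chromosome 7, and in the RefSeq annotation of GRCm38.p6 its span overlaps that of Dbp, which is on the plus strand and encodes a transcription factor of the PAR bZIP family driven by the circadian clock. The annotated starts of both genes are shown because the profile of 1 Sphk2 probe set and that of its overlapping neighbor ran together over the mice. Each stretch holds 250 bases before and 50 after a RefSeq start, written 5′ to 3′ on the strand of its gene, and capitals mark the matches to the 4 motifs searched.
Sphk2, first start, chr7:45717953-45718252, minus strand, GRCm38.p6: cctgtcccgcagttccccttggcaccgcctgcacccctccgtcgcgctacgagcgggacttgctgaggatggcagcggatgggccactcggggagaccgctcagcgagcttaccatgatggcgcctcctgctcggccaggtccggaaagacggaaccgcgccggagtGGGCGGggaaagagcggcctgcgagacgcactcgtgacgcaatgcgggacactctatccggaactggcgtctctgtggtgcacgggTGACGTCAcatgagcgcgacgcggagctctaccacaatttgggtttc
Sphk2, second start, chr7:45715158-45715457, minus strand, GRCm38.p6: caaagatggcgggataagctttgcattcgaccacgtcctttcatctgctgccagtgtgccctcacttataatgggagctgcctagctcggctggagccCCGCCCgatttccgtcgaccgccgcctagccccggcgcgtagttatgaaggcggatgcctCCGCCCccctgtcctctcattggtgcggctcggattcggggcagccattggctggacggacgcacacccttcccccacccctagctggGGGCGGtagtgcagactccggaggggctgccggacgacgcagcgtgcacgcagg
Dbp, chr7:45704997-45705296, plus strand, GRCm38.p6: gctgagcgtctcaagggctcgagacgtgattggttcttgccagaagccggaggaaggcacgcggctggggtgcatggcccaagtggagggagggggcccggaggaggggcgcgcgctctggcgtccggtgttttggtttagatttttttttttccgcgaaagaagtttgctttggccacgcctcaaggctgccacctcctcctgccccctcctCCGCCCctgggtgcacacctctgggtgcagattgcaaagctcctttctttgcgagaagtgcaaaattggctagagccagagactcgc

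The motifs were the E-box CACGTG, the cAMP response element TGACGTCA, the GC box GGGCGG, and the D-box TTATGTAA, searched on both strands, of which only matches to the GC box and 1 match to the cAMP response element occurred in these 3 stretches. The first Sphk2 start held 1 cAMP response element, a motif found in 1.79% of the 32851 RefSeq promoters of the same length, and 1 GC box, found in 35.7%. The second Sphk2 start held 3 GC boxes, and the Dbp start held 1. Over the 14 promoters given for the members, the GC box was present in 7 promoters of 6 genes. The E-box, present in 7.15% of all promoters, was in 3 promoters of 2 genes, Sphk1 and Sgpp2. The Sphk1 promoters with an E-box cover nearly the same stretch, so these 3 promoters need not hold 3 separate sites. The D-box, present in 0.938% of all promoters, was in none of the 14. Asah1 had no entry in the promoter table.

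The values are log2 signals centred per probe set, with the median over the 8 mice at 0. They show how mice differ for 1 probe set and hold no level that could be set against another probe set or against background. In BTWT mice 1 to 4, the Sphk2 probe set 1426230_at stood at -1.52, -0.84, -1.87, and -0.58, and in BTΔMAFF mice 1 to 4 at 0.58, 0.75, 1.04, and 0.64. All 4 BTWT mice lay below all 4 BTΔMAFF mice, with the widest gaps in BTWT mice 3 and 1, and the BTWT mice were spread more widely (SD 0.60) than the BTΔMAFF mice (SD 0.20, n = 4 each). BTWT minus BTΔMAFF was -1.96 on the log2 scale (SE 0.29, 95% interval -2.65 to -1.27), a signal 3.88-fold lower in BTWT mice. Its SD over the 8 arrays, 1.12, was exceeded by 121 of the 45037 probe sets. In bulk RNA of sorted cells, fewer cells of a type and less RNA per cell cannot be told apart.

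The other Sphk2 probe set, 1417431_a_at, had another profile. It stood at 0.017, -0.55, -0.12, and 0.14 in BTWT mice 1 to 4 and at -0.017, 0.062, 0.13, and -0.21 in BTΔMAFF mice 1 to 4. The groups overlapped, BTWT mouse 2 was the lowest, and the difference was -0.12 (SE 0.16, 95% interval -0.49 to 0.25). The intervals of the 2 Sphk2 probe sets did not overlap, so the size of the Sphk2 difference depended on the probe set read, and the mean of both gave -1.04.

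The profile of 1426230_at was nearest to that of Dbp. Likeness was measured over the 8 arrays as the root mean square (RMS) of the differences between centred log2 values, over the 34945 probe sets with 1 gene. The Dbp probe set 1438211_s_at was first at an RMS of 0.158 and the Dbp probe set 1418174_at second at 0.254, whereas 1417431_a_at, of Sphk2 itself, ranked 4574 at 1.03. Dbp 1438211_s_at stood at -1.29, -0.71, -2.14, and -0.77 in BTWT mice 1 to 4 and at 0.71, 0.73, 1.03, and 0.71 in BTΔMAFF mice 1 to 4. It departed from Sphk2 1426230_at by at most 0.268 in any mouse. Dbp 1418174_at stood at -1.58, -0.90, -2.44, and -0.67 in BTWT mice 1 to 4 and at 0.84, 0.67, 1.34, and 0.79 in BTΔMAFF mice 1 to 4. For both Dbp probe sets the lowest mouse was BTWT mouse 3 and the highest BTΔMAFF mouse 3, as for Sphk2 1426230_at, and the groups did not overlap. The differences of Dbp were -2.02 (SE 0.31) and -2.31 (SE 0.39).

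**Figure D1:**
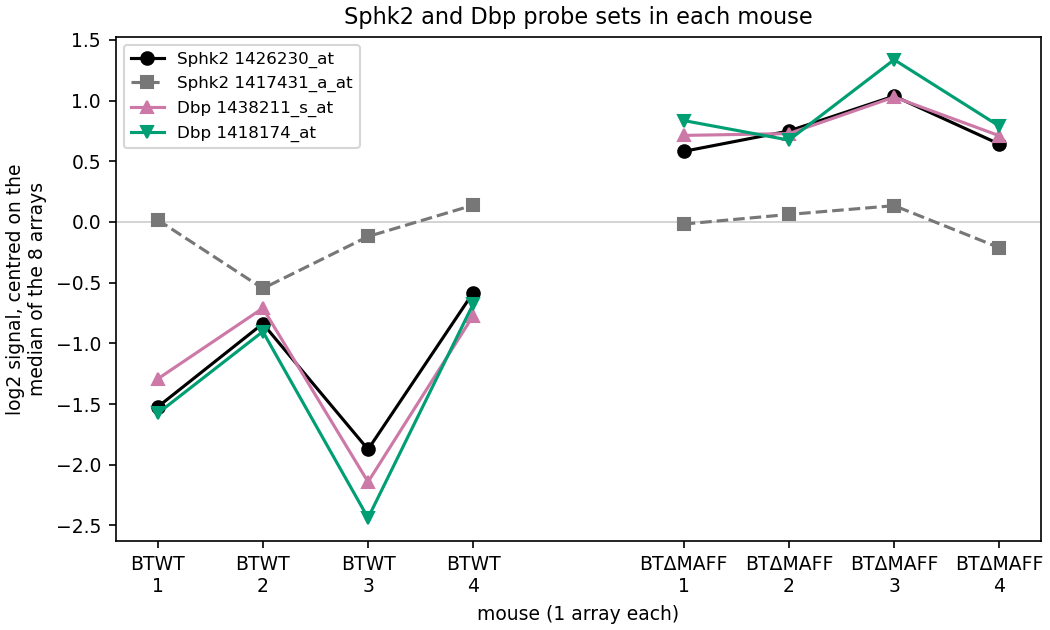
Centred log2 signal (vertical axis) of the 2 Sphk2 probe sets and the 2 Dbp probe sets in each of the 8 mice (horizontal axis, 1 array per mouse, lines join mice of a group and have no order in time). Sphk2 1426230_at and both Dbp probe sets run together, from -2.44 in BTWT mouse 3 to 1.34 in BTΔMAFF mouse 3, and Sphk2 1417431_a_at stays between -0.55 and 0.14.

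Since the group difference itself had chosen Sphk2, the deviations of each mouse from the mean of its own group were compared. Of the member probe sets, 1426230_at was followed for its SD over the 8 arrays, the largest. Both that SD and the RMS above contain these deviations. The correlations with Dbp and their p-values therefore describe the same closeness again and are not separate evidence for it. Over the 8 mice, the deviations of Sphk2 1426230_at and Dbp 1438211_s_at had a Pearson's r of 0.93 (exact permutation within groups, two-sided p = 0.0139, adjusted 0.0209) and a Spearman's rho of 0.81 (exact p = 0.0243, adjusted 0.0729). With Dbp 1418174_at, r was 0.96 (exact p = 0.0104, adjusted 0.0209) and rho 0.83 (exact p = 0.132, adjusted 0.198). With the other Sphk2 probe set, r was 0.039 (exact p = 0.96, adjusted 0.96) and rho 0.12 (exact p = 0.854, adjusted 0.854). The p-values are adjusted over these 3 relations, which were chosen after the values were seen, and each rests on 576 within-group permutations. BTWT mice 3 and 4 deviated most from their group mean on Sphk2 1426230_at, taken from the median deviation, and without these 2 mice r with the Dbp probe sets was 0.89 for both, and r with the other Sphk2 probe set was -0.45. The files do not pair probe sets with positions in the genome, and whether transcripts of Dbp contribute to the signal of 1426230_at was not tested.

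After Dbp, the genes nearest to Sphk2 1426230_at were Tef, another PAR bZIP factor, at an RMS of 0.356, Tesk2 at 0.433, Plcd1 at 0.437, and Zfp385b at 0.468. Tef 1450184_s_at differed by -2.10 (SE 0.36), Tesk2 1426546_at by -1.31 (SE 0.28), Plcd1 1448432_at by -1.33 (SE 0.22), and Zfp385b 1457704_at by -2.04 (SE 0.36), each lower in all 4 BTWT mice than in all 4 BTΔMAFF mice. These genes were picked for their likeness to a probe set that differed between the groups, so that their differences are not separate observations.

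The other measured neighbors of Sphk2 differed by less than Dbp. Rpl18, which also overlaps Sphk2 in the annotation, had no probe set of its own. Car11 1424379_at, the nearest gene on the side of Dbp, differed by 0.0010 (SE 0.033). Its SD over the 8 arrays was only 0.039, and without levels a steady transcript and a probe set without signal look alike. Fam83e, the nearest gene on the other side, was lower in all 4 BTWT mice than in all 4 BTΔMAFF mice for 1430717_at. The difference was -0.30 (SE 0.063, unadjusted p under 0.05 in limma), and that of 1439430_x_at was -0.14 (SE 0.12). Of the 10 member genes, 6 overlap an annotated gene and for 3 that gene was measured. The overlapping neighbors were Farsb for Sgpp2, with differences between 0.066 and 0.58 over 4 probe sets, and Frg1 1417253_at for Asah1, at -0.11 (SE 0.085).

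Sphk1, the other sphingosine kinase, hardly varied between mice. Its probe set 1420566_at stayed between -0.031 and 0.034 and 1451596_a_at between -0.027 and 0.078 over the 8 mice. The differences were 0.020 (95% interval -0.036 to 0.076) and 0.024 (95% interval -0.046 to 0.094). They were near the median difference of all probe sets, 0.018, and were 0.0024 and 0.0063 with arrays centred on their medians. Both had an SD over the 8 arrays under 0.05, a limit chosen after the values were seen. Of the 23 member probe sets, 6 (26.1%) were under it, against 32.8% of all probe sets: both of Sphk1, Sgpp1 1450015_x_at, Asah2 1458849_at, Smpd1 1447874_x_at, and Sptlc1 1422691_at. Their values over all mice stayed between -0.081 and 0.082. The same held for 7 of 8 probe sets of the S1P receptors and for 7 of 8 probe sets of leukocyte markers, cells against which the sort was gated. In centred values without a detection call, a transcript that does not vary and a probe set without signal look alike, and which of these applies to Sphk1 was not tested.

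**Figure D2:**
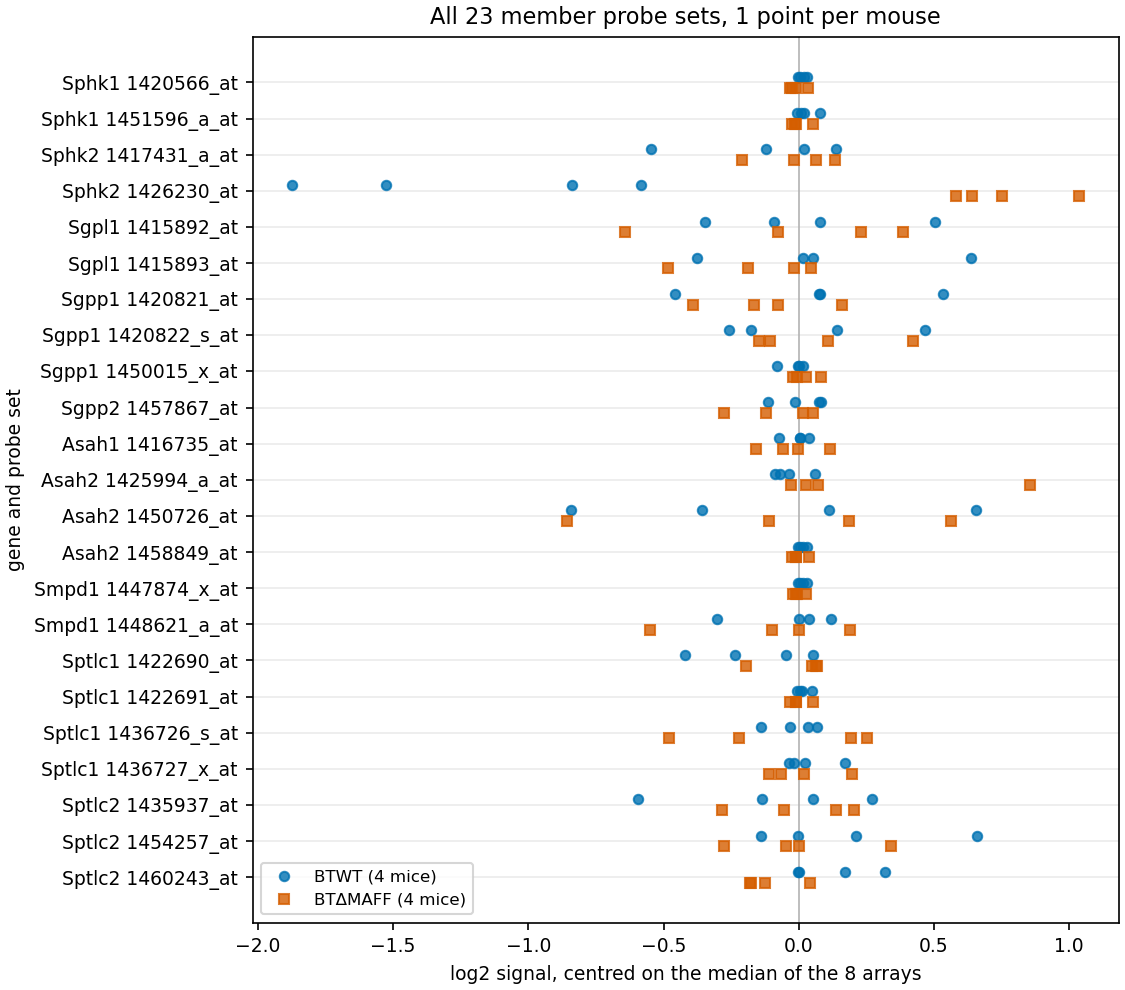
Centred log2 signal (horizontal axis) of the 23 member probe sets (vertical axis), with 1 circle per BTWT mouse and 1 square per BTΔMAFF mouse. The groups separate for Sphk2 1426230_at and overlap for the other 22 probe sets, and the 6 probe sets with an SD under 0.05 lie on the zero line.

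The genes that remove S1P showed no separation of the groups. For the lyase Sgpl1, 1415892_at stood at 0.50, -0.35, 0.077, and -0.093 in BTWT mice 1 to 4 and at 0.38, -0.077, 0.23, and -0.64 in BTΔMAFF mice 1 to 4. Its other probe set, 1415893_at, stood at 0.052, 0.64, -0.38, and 0.017 in BTWT mice and at -0.017, -0.48, -0.19, and 0.045 in BTΔMAFF mice. The probe sets of Sgpl1 ranked the mice differently: BTWT mouse 2 was the highest on 1415893_at, and on 1415892_at only BTΔMAFF mouse 4 was lower. The differences were 0.062 (SE 0.27) and 0.24 (SE 0.22). For the phosphatase Sgpp1, 1420821_at differed by 0.18 (SE 0.22), 1420822_s_at by -0.026 (SE 0.19), and 1450015_x_at by -0.037 (SE 0.034). Sgpp2, the phosphatase with a single probe set here, 1457867_at, differed by 0.089 (SE 0.083).

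Among the ceramidases, Asah1 1416735_at stayed between -0.16 and 0.11 and differed by 0.020 (95% interval -0.12 to 0.16). Asah2 1450726_at was the second most variable member probe set, with an SD of 0.576 over the 8 arrays, and stood at 0.66, -0.84, -0.36, and 0.11 in BTWT mice 1 to 4 and at 0.56, -0.86, 0.19, and -0.11 in BTΔMAFF mice 1 to 4. Each group spanned nearly the same range, and the difference was -0.053 with a wide interval (-1.01 to 0.91). The probe sets nearest to it were those of Cuedc2, Rpl22, Zfp553, Mpp6, and Atp2a2, at RMS values between 0.244 and 0.263. Asah2 1425994_a_at stood at 0.86 in BTΔMAFF mouse 1 and between -0.087 and 0.072 in the other 7 mice. Its difference of -0.27 (SE 0.20) therefore came with 1 mouse. The high mouse of 1425994_a_at was also the highest BTΔMAFF mouse for 1450726_at.

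Smpd1 1448621_a_at stood at 0.038, -0.30, 0.12, and -9.6e-05 in BTWT mice 1 to 4 and at -0.10, 0.19, 9.6e-05, and -0.55 in BTΔMAFF mice 1 to 4. The lowest mice, BTWT 2 and BTΔMAFF 4, were those whose arrays stood apart from their groups over all probe sets, and the difference was 0.078 (SE 0.17). For serine palmitoyltransferase, the 4 probe sets of Sptlc1 differed by between -0.16 and 0.046. Sptlc2 1435937_at differed by -0.10 (SE 0.20), and Sptlc2 1454257_at by 0.18 (SE 0.20). Sptlc2 1460243_at stood at 0.0013, -0.0013, 0.17, and 0.32 in BTWT mice 1 to 4 and at -0.12, -0.18, 0.042, and -0.18 in BTΔMAFF mice 1 to 4. BTΔMAFF mouse 3 reached into the range of the BTWT mice, and the difference was 0.23 (SE 0.088), a 1.17-fold higher signal in BTWT mice. Of the 8 member genes with more than 1 probe set, the probe sets of 4 pointed in 1 direction and those of the other 4 in both.

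**Figure D3:**
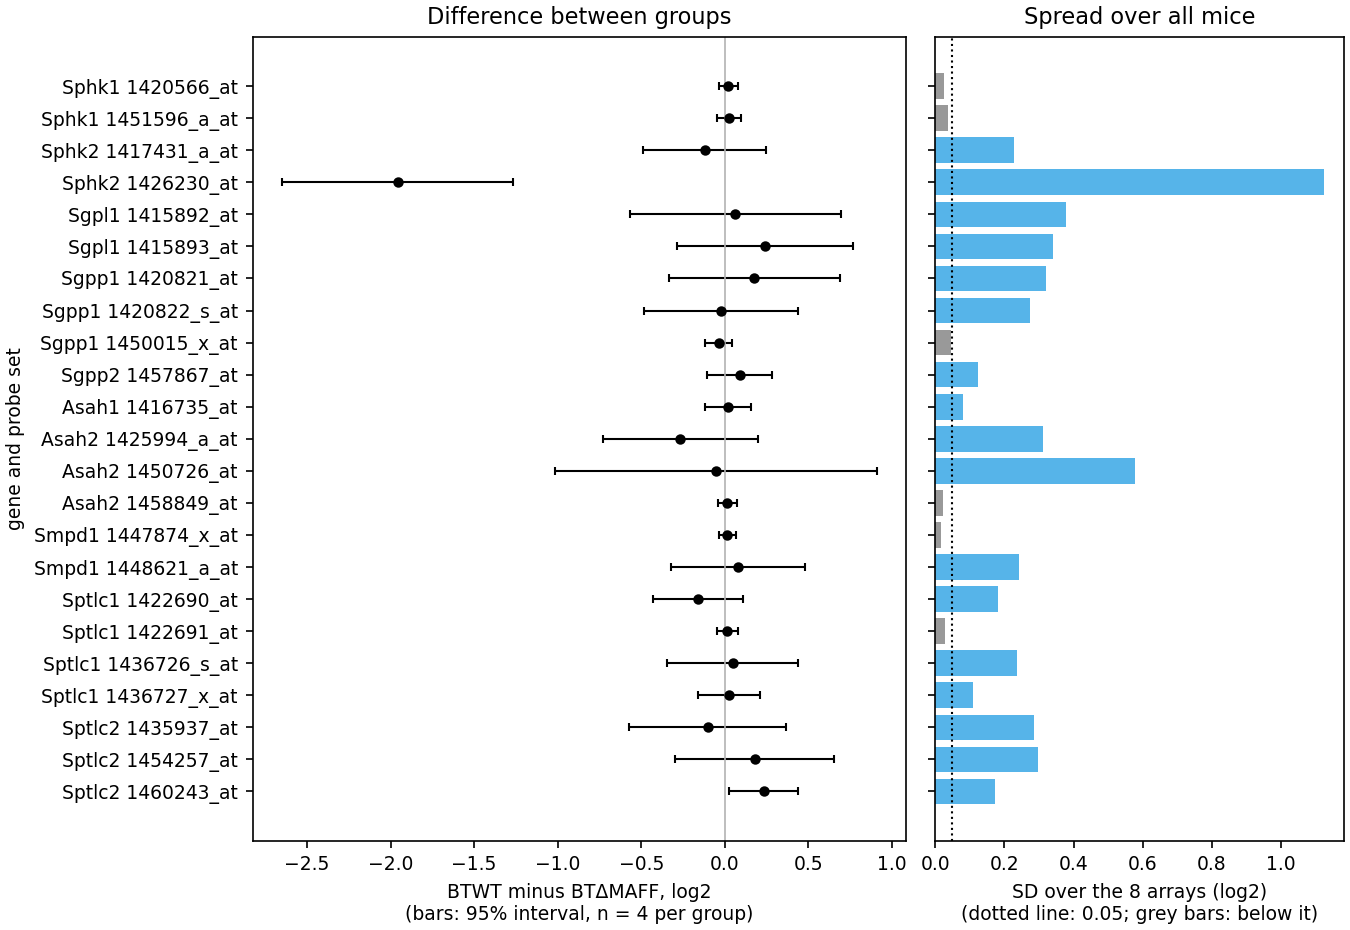
Left, BTWT minus BTΔMAFF on the log2 scale (horizontal axis) for the 23 member probe sets (vertical axis), points with 95% intervals from limma, n = 4 mice per group. Right, SD of each probe set over the 8 arrays, with a dotted line at 0.05 and the 6 probe sets below it in grey. Sphk2 1426230_at stands at -1.96, and the other 22 differences lie between -0.27 and 0.24.

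Counted over the members, 1 of 23 probe sets, Sphk2 1426230_at, was lower in BTWT mice at an unadjusted p under 0.05 in limma, where 2.86% of all 45037 probe sets were, and 1, Sptlc2 1460243_at, was higher, where 2.24% were. A fold over 2 together with that p was met by Sphk2 1426230_at, against 0.286% of all probe sets in this direction and 0.262% in the other. The groups did not overlap for 1 of 23, against 2.83% of all probe sets. That 1 was again Sphk2 1426230_at, whose difference had chosen the members, so its counts were fixed in advance. Of the other 22 probe sets, none was lower at that p, met both thresholds, or separated the groups. With Benjamini-Hochberg adjustment over all probe sets no member passed 0.05, as did none (0%) of the 45037 probe sets, of which 2295 had an unadjusted p under 0.05. The median difference of the members was 0.020 on the log2 scale and that of all probe sets 0.018. Sptlc2 lost its count when the arrays were centred on their medians or quantile normalized and without any 1 of 5 arrays (BTWT 3 or 4, BTΔMAFF 1, 2, or 4), each of which left 1 member probe set, in place of 2. The values of Sphk2 1426230_at ranged from -2.34 to -1.73 over all alternatives that kept the probe set on its own.

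The rest of the pathway was read from a list of 65 genes, of which 59 had probe sets of their own, 116 in all. At an unadjusted p under 0.05, 6 probe sets of 5 genes were higher in BTWT mice and 8 probe sets of 7 genes lower, and 102 did not pass, where over all 45037 probe sets 2.24% were higher and 2.86% lower. None passed after adjustment over all probe sets, with adjusted p between 0.463 and 0.828 in limma for these 14. Centring the arrays on their medians gave 3 higher and 9 lower, and quantile normalization 4 and 11. The median difference over the 116 probe sets was 0.013. Of the 116, 13.8% had an SD under 0.05 over the 8 arrays, against 32.8% of all probe sets.

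By role, the lower probe sets were 2 of 21 of de novo synthesis and 1 of 8 of other ceramidases. Of ceramide transfer and phosphorylation 1 of 9 was lower, and of glycosphingolipid synthesis 1 of 18. Of S1P export and degradation 3 of 13 were lower, from 2 genes. Over all probe sets of the array 2.86% were lower. Cers4, a ceramide synthase, stood on 1417780_at at 0.15, -0.80, -0.15, and -0.80 in BTWT mice 1 to 4 and at 1.11, 0.96, 0.62, and -0.22 in BTΔMAFF mice 1 to 4. BTΔMAFF mouse 4 lay among the BTWT mice, and the difference was -1.02 (SE 0.35). The other Cers4 probe sets, 1417781_at and 1417782_at, differed by -0.55 (SE 0.26) and -0.60 (SE 0.28) and did not pass. Fa2h, the fatty acid 2-hydroxylase that makes hydroxylated sphingolipids, stood at -0.37, -0.056, -0.58, and -0.30 in BTWT mice 1 to 4 and at 0.056, 0.22, 0.31, and 0.070 in BTΔMAFF mice 1 to 4. The groups did not overlap, and the difference was -0.49 (SE 0.12, limma adjusted p = 0.489).

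Acer1, an alkaline ceramidase, stood on 1450825_at at -0.033, -0.51, -0.52, and -0.46 in BTWT mice 1 to 4 and at 0.50, 0.033, 0.89, and 0.26 in BTΔMAFF mice 1 to 4. BTWT mouse 1 was nearest to the other group, without overlap, and the difference was -0.80 (SE 0.20). Acer1 1439183_at differed by -0.24 (SE 0.10) and did not pass. Abcc1, a transporter that can carry S1P out of cells, was lower on 1421378_s_at by -0.71 (SE 0.21) and on 1452233_at by -0.68 (SE 0.23), with overlap of the groups in both. Plpp2, a lipid phosphate phosphatase, differed by -0.32 (SE 0.086) on 1451210_at, Gltp, a glycolipid transfer protein, by -0.34 (SE 0.10), and B4galt5, a lactosylceramide synthase, by -0.51 (SE 0.19) on 1433617_s_at. The other probe sets of Plpp2, 1420910_at at 0.0074 (SE 0.026), and of B4galt5, 1421967_at at -0.48 (SE 0.24), did not pass.

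The higher probe sets were 3 of 20 of glycosphingolipid breakdown, 2 of 19 of sphingomyelin metabolism, and 1 of 18 of glycosphingolipid synthesis. Over all probe sets of the array 2.24% were higher. Gla, the lysosomal alpha-galactosidase, stood on 1418248_at at 1.10, 0.40, 0.32, and 0.22 in BTWT mice 1 to 4 and at -0.33, -0.46, -0.32, and -0.22 in BTΔMAFF mice 1 to 4. The groups did not overlap, BTWT mouse 1 was the highest, and the difference was 0.84 (SE 0.19, limma adjusted p = 0.463). The other Gla probe sets, 1449006_at and 1459738_x_at, differed by -0.034 (SE 0.15) and 0.086 (SE 0.17), so that the difference stood on 1 of 3 probe sets. Psap, whose product is cut into the saposins that activate lysosomal sphingolipid hydrolases, differed by 0.27 (SE 0.11) and 0.30 (SE 0.087) on both of its probe sets. The sphingomyelin synthase Sgms2 differed by 0.29 (SE 0.12) on 1428663_at, its relative Samd8 by 0.35 (SE 0.15) on 1453730_at, and the glucosylceramide synthase Ugcg by 0.16 (SE 0.053) on 1435133_at. Their other probe sets did not pass: Sgms2 1429029_at stood at a difference of 0.50 (SE 0.31), Samd8 1434402_at at 0.083 (SE 0.14), and Samd8 1458408_at, of the opposite sign, at -0.20 (SE 0.18). The other 3 Ugcg probe sets differed by between 0.068 and 0.23. Over the 116 probe sets the groups did not overlap for 4, those of Fa2h, Acer1, B4galt5, and Gla, against 2.83% of all probe sets.

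**Figure D4:**
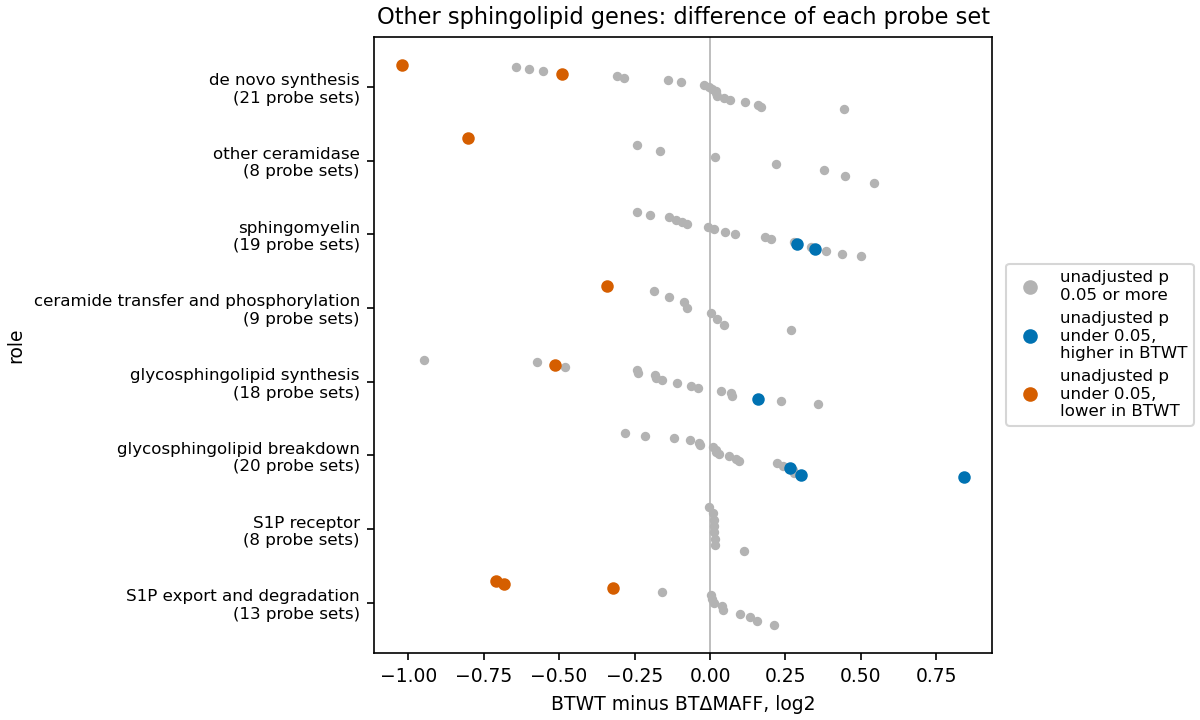
BTWT minus BTΔMAFF on the log2 scale (horizontal axis) for each of the 116 probe sets of the other sphingolipid genes, by role (vertical axis, offset within a role for legibility), with probe sets at an unadjusted limma p under 0.05 in blue when higher in BTWT mice (6) and in orange when lower (8). The differences run from -1.02 for Cers4 to 0.84 for Gla, and those of the S1P receptors lie between -0.0043 and 0.11.

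The probe sets of S1P receptors varied little between mice, except S1pr5 1449365_at, which reached 0.28 in BTWT mouse 3. Whether the receptors were expressed cannot be read from centred values. S1pr1, S1pr2, S1pr3, and S1pr4 differed by between -0.0043 and 0.017 over 7 probe sets, all with an SD under 0.05, and S1pr5 1449365_at by 0.11 (95% interval -0.069 to 0.29). The S1P transporter Spns2 differed by 0.045 (SE 0.030). No receptor and no member that adds or removes the phosphate of S1P other than Sphk2 1426230_at passed.

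Of the array as a whole, BTWT mouse 2 and BTΔMAFF mouse 4 stood apart from their groups on principal component 1 (29.4% of the variance), and without both the difference of Sphk2 1426230_at was -2.12. As a measure of RNA integrity, the 3′ minus 5′ difference of control probe sets was lower in BTWT mice by -0.12 for Gapdh (two-sided exact permutation p = 0.314) and by -0.071 for beta-actin (exact p = 0.0857). Of 11 probe sets each, 3 of colonic epithelium markers were lower in BTWT mice at an unadjusted p under 0.05 in limma. Of surface colonocyte markers 4 were lower and 1 higher, and of goblet cell markers 4 were lower and 2 higher. Over all 45037 probe sets, 2.86% were lower and 2.24% higher. The groups did not overlap for 1, 4, and 3 probe sets of these lists, in that order, against 2.83% of all probe sets. The mean centred signal of the goblet cell list ran from -0.18 to 0.10 in BTWT mice and from 0.0019 to 0.19 in BTΔMAFF mice, that of the surface colonocyte list from -0.22 to 0.076 and from -0.044 to 0.13, and that of the colonic epithelium list from -0.11 to 0.052 and from 0.0088 to 0.087. None of the 33 probe sets of leukocyte, endothelium, fibroblast, and smooth muscle markers passed. In that order, 7 of 8, 4 of 5, 4 of 12, and 5 of 8 had an SD under 0.05 over the 8 arrays. The fibroblast list ran from -0.22 to 0.20 in BTWT mice and from -0.016 to 0.61 in BTΔMAFF mice, highest in BTΔMAFF mouse 2. Its mean difference was -0.27, and its probe sets differed by between -1.14 and 0.043, 6 of them negative and 6 positive. The leukocyte list ran from -0.016 to 0.048 in BTWT mice and from -0.012 to 0.12 in BTΔMAFF mice. The part of any of these lists in the values of the sphingolipid genes was not tested.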

How the data were processed

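Colonic epithelial cells of 4 BTWT- and 4 BTΔMAFF-colonized SPF-Abx mice were measured with 1 array per mouse, and arrays were assigned to groups by their labels. The limma p-values set each difference against the spread between these 8 mice, with that spread shared in part over probe sets. The number of mice limits the precision. The authors deposited log2 values, 45101 probe sets in all, each centred on its median over the 8 arrays. GeneSpring is named in the methods and Affymetrix Expression Console in the submitters' processing notes, and the sources used here state neither the background correction nor the normalization.

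Leaving out the 64 control probe sets, 45037 were fitted in R 4.3.3 with limma 3.58.1 (lmFit and eBayes, no covariate, Benjamini-Hochberg adjustment). The fit was also run on simulated data of this comparison (45037 probe sets), with calls at an adjusted p under 0.05. Of probe sets changed on the log2 scale, 83 of 100 changed by 1.5 and 96 of 100 changed by 3 were called. Among 44837 left unchanged there were 10 calls. The simulated noise was normal and independent between probe sets, without shifts of whole arrays, so these rates need not hold for the measured data. Permutation tests used scipy 1.17.1. Gene names came from the array annotation, in which 34945 probe sets have 1 gene and 932 several, and 34741 were matched by gene ID to RefSeq (GRCm38.p6). Promoter sequences are RefSeq's, with 14 entries matched for 9 of the 10 members. Sequences of the proteins were not used here, so the planned comparison of proteins within pairs of members was not made.

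The members, the pathway and marker lists, and the tests were chosen with earlier results of these data known. All member probe sets are named, as are pathway probe sets at an unadjusted p under 0.05 (up to 4 per role, by p) and the S1P receptors, the annotated neighbors of members that differed by 1 or more, and the 5 genes nearest in profile to each member probe set with an SD of 0.5 or more. Other genes were named after their values were seen. Alternatives were other scalings, array weights, the replicate block, a robust prior, an unpaired test, and arrays left out.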

Additional observations from a re-analysis of the deposited data

Results flagged for a closer look

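In 5 of the 78 groups of 4 mice examined (39 probe sets in both groups), 1 mouse stood far from the other 3, where chance gives about 1 in 20. For the neutral ceramidase Asah2 (1425994_a_at), BTΔMAFF mouse 1 was at 0.86, and the others of its group lay between -0.028 and 0.072. For Sptlc1 (1422690_at), BTΔMAFF mouse 3 was at -0.19, and the others lay between 0.048 and 0.066. For Acer1 (1450825_at), BTWT mouse 1 was at -0.033, and the others lay between -0.52 and -0.46. For Gltp (1419027_s_at), BTΔMAFF mouse 4 was at -0.020, and the others lay between 0.28 and 0.30. For Dbp (1438211_s_at), BTΔMAFF mouse 3 was at 1.03, and the others lay between 0.71 and 0.73.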

How the results depend on the processing

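The difference of Sphk2 1426230_at kept its direction under every alternative tried, from -2.16 to -1.73 with 1 array left out and -2.34 with array weights, and was smaller as the mean of both Sphk2 probe sets (-1.04). Of 382 member values under alternatives, 370 moved by less than the spread between mice, 12 moved by more, and none of the called ones changed sign, while 8 of the 23 probe sets kept their sign throughout. The number of member probe sets at an unadjusted p under 0.05, 2 in the main fit, was 1 with quantile normalization, with arrays centred on their medians, without both arrays that stood apart, and with probe sets above the median SD only, 5 with array weights, and 1 to 2 with 1 array left out. The pathway count, 14, was 46 with array weights and 11 to 22 with 1 array left out, the highest without BTΔMAFF mouse 4. Over all probe sets, 247 had a fold over 2 and an unadjusted p under 0.05, 676 with array weights and 230 to 333 with 1 array left out. With array weights, which gave BTWT mouse 3 a weight of 4.68 and BTΔMAFF mouse 4 one of 0.12, 510 probe sets passed adjustment, 1 of them a member and 5 of the pathway. The cause was not tested. With only the 22518 probe sets above the median SD fitted, 25 passed adjustment, 1 of them a member and 0 of the pathway. That SD is taken over all 8 arrays and contains the difference between the groups. Of the 14 named pathway probe sets, those of Fa2h, Acer1 and Gla stayed under an unadjusted p of 0.05 in all 16 alternatives, while Sgms2 did in 5, Samd8 in 4 and Psap 1415687_a_at in 6. The methods' unpaired test gave 2 member probe sets, 11 of the pathway and 215 past both thresholds, and 0 after Benjamini-Hochberg. With the replicate numbers as a block, the counts were 3, 13 and 242. Deviations of mice with the same number correlated at 0.39, -0.040, 0.033 and -0.27. The labels do not say whether equal numbers pair mice, and these 4 values cannot decide it. The control 3′ minus 5′ differences kept their sign without any 1 array, from -0.18 to -0.061 for Gapdh and from -0.094 to -0.054 for beta-actin. The count of member probe sets with little spread, 6, was 7 at a limit of 0.1, where 45.4% of all probe sets lay, an alternative chosen after seeing the data. Without levels or detection calls, depth of signal over background is unknown.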
